A study of Mus musculus with 6 samples.

Results

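Described here are 9 genes of lipid-sensing nuclear receptors and fatty acid binding proteins, in RNA bound to the tagged ribosomes of myeloid cells at a mouse spinal cord injury. They are the receptor genes Pparg, Ppard, Rxra, Rxrb, Rara and Vdr, the coactivator gene Ppargc1b, and the carrier genes Fabp4 and Fabp5. All 9 were found by symbol among the 13960 rows of the authors' unfiltered table, and all 9 were among the 13042 genes that could be tested. The libraries came from RiboTag immunoprecipitates of the injury site after a contusion at thoracic level T8, with 3 libraries from day 3 and 3 from day 7. All 6 carry the same genotype, LysMCre:Rplfl/fl > CD45.1 chimera, and the strain CD45.1, which is usually read as tagged donor marrow in a CD45.1 host. The Cre is driven by the lysozyme M gene, which is active in macrophages and also in neutrophils and other myeloid cells. Age and the number of animals behind a library are not given in the sources used here. The p-values therefore measure the spread between these libraries, which may be technical. There is no uninjured group, so each value compares 7 days with 3 days.

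Values are FPKM (fragment counts that the authors' software divides by gene length and library size), so levels of different genes can be set side by side per length. The number of reads behind a gene is unknown. The step between the lowest FPKM values gave a depth relative to 3-day replicate 1 of 0.758 to 0.939 in the other 5 libraries, an estimate resting on only 12 to 22 genes in each. Rpl22, whose protein carries the tag, measured 41.6, 46.4 and 53.7 FPKM at 3 days and 39.7, 49.2 and 46.9 FPKM at 7 days (limma adjusted p = 0.739). Of 10 macrophage markers 7 could be tested, and their summed level was 1470.1 to 1738 FPKM at 3 days and 1782 to 1912 FPKM at 7 days. Its members went both ways: Csf1r, Mertk and Fcgr3 were called higher at 7 days (log2 0.46, 0.85 and 0.99) and Fcgr1 and Cd14 lower (-0.77 and -0.86). The macrophage gene Lyz2 was not tested, because it is listed at 0 in 7-day replicate 3 beside 9435 FPKM in 7-day replicate 1. Markers of other myeloid states shifted as well. The summed level of 6 microglia markers went from 792 to 1037 FPKM at 3 days to 2202 to 2425 FPKM at 7 days, with 4 called higher and 1 lower. That of 6 inflammatory monocyte markers went from 234 to 304 FPKM to 107 to 137 FPKM, with 4 called lower and 0 higher. Transcripts of other cells were present too. The sum of 5 erythroid markers was 164 to 213 FPKM at 3 days and 15.9 to 22.4 FPKM at 7 days. The summed level of 9 neuron markers was 177 to 418 FPKM at 3 days and 60.0 to 74.5 FPKM at 7 days, and that of 8 astrocyte markers was 234 to 641 and 130 to 162 FPKM. The 3-day replicate 2 held the highest sums of both. In such bulk samples fewer cells of a type and less RNA per cell cannot be told apart.

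Peroxisome proliferator-activated receptors (PPARs) are nuclear receptors that bind fatty acids and their derivatives and switch on genes of lipid uptake, storage and oxidation. They bind DNA as heterodimers with a retinoid X receptor (RXR), which also pairs with the retinoic acid receptors, the vitamin D receptor and the liver X receptors. Fatty acid binding proteins (FABPs) are small cytosolic carriers that bring fatty acids to enzymes, membranes and the nucleus. In macrophages, PPAR gamma is known for its part in lipid uptake and in alternative activation.

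DNA upstream of receptor genes is shown first, because the PPAR-RXR heterodimer recognises DR1, a direct repeat of the half-site AGGTCA with 1 base between the copies. RefSeq (GRCm38.p6, the build mm10) gave 13 start-site windows for 6 of the 9 genes, and the 250 bases before each start were searched on both strands. A DR1 element was found in 0 of these 13 windows and in 0.0335% of all 32851 windows. The half-site was found before the first and second of 3 starts of Pparg and before the second of 2 starts of Rxra, beside 14.0% of all windows. On the opposite strand it reads TGACCT. These matches are descriptions of letters and do not show that a factor was bound. The 30 bases around each match are given on the gene's strand, with the half-site in capitals.
Pparg, first start, chr6:115361104-115361133: agccgccgcctcAGGTCAgagtcgccccgg
Pparg, second start, chr6:115362319-115362348: ttttatataagggacgcgaggAGGTCAaga
Rxra, second start, chr2:27709193-27709222: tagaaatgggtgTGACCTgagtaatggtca
Rxra, second start, chr2:27709232-27709261: gggtggcaggaaAGGTCAgtcactctctgt

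Both Pparg matches, whose first bases lie 28 and 9 bases before their RefSeq starts, fall within an exon of the GENCODE M21 annotation. The most downstream start of Pparg and the start of Ppard are shown next as examples. Capitals mark GC boxes (GGGCGG or CCGCCC), present in 32.7% of all windows. The full 250 bases before the first, second and most downstream Pparg starts held 1, 2 and 0 GC boxes. Those before the Ppard start held 3, exon bases included. Whether GC boxes bear on the levels of these genes was not tested.
Pparg, most downstream start, chr6:115421816-115422065: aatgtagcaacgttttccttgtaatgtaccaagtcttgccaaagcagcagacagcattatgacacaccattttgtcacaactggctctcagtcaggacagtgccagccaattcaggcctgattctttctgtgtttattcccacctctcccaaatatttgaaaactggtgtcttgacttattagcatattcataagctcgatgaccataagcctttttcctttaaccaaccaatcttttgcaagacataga
Ppard, chr17:28232504-28232699, the part outside annotated exons: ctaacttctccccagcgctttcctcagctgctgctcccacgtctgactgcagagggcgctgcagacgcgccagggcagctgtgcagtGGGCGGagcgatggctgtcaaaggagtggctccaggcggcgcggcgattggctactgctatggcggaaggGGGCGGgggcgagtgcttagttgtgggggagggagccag

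G and C made up 82.4%, 63.6% and 40.8% of the 250 bases before the first, second and most downstream Pparg starts. They made up 69.6% before the Ppard start, beside a median of 52.4% over all windows. The FPKM values are per gene and do not say which start of Pparg was used.

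Pparg, Rxra, Rxrb and Fabp4 were higher at 7 days and Ppard and Vdr were lower, while Rara, Ppargc1b and Fabp5 did not pass the test. Calls were made on log2(FPKM + 1) with limma at an adjusted p of 0.05 or less, with Benjamini-Hochberg adjustment over all 13042 genes. Of the 9 genes 4 were thus called higher and 2 lower, where 39.1% of all tested genes were called, 18.8% higher and 20.3% lower. For 6 of the 9 the 3 libraries of 1 time all lay above those of the other, where 55.4% of all tested genes did so. The authors' deposited q-value was 0.05 or less for 4 of the 9 (Pparg, Rxra, Fabp4 and Vdr), where 38.4% of all tested genes were called so. The median log2 change of the 9 was 0.27, and that of all tested genes was -0.04. The microglia and inflammatory monocyte marker sums differed between the same libraries without overlap, and their part in the changes of Pparg, Rxra, Rxrb and the other members was not tested. Without 7-day replicate 3, 2 were called higher and 0 lower. Without either of the other 7-day libraries, 3 were called higher and 0 lower. Without any single 3-day library, or with the replicate number as a block, 1 was called lower, and with quantile normalization 0.

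**Figure D1:**
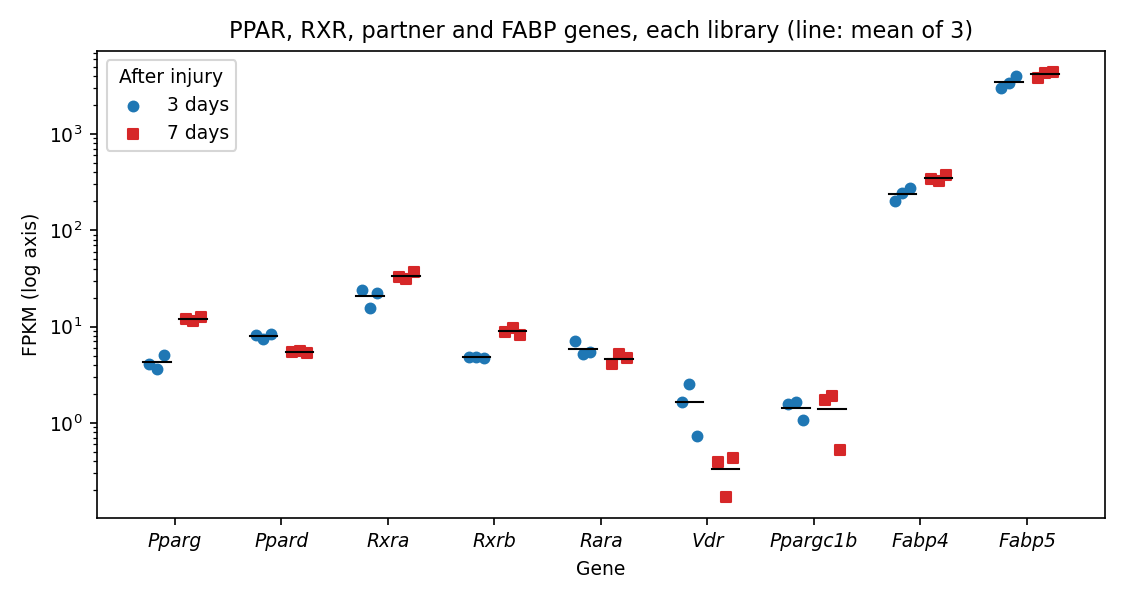
FPKM (log axis) of the 9 genes in each library, blue circles for the 3 libraries at 3 days and red squares for the 3 at 7 days, with black lines at the means. Fabp5 and Fabp4 lie far above the receptors at both times, and Pparg rises past Ppard between the times.

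Levels per length spanned a wide range. At 3 days the order of mean FPKM was Fabp5, Fabp4, Rxra, Ppard, Rara, Rxrb, Pparg, Vdr and Ppargc1b. Library values of Rxrb and Pparg overlapped at this time, as did those of Vdr and Ppargc1b, and the other neighbours were apart. At 7 days the order was Fabp5, Fabp4, Rxra, Pparg, Rxrb, Ppard, Rara, Ppargc1b and Vdr, with no overlap between neighbours. Pparg thus moved above Rxrb, Ppard and Rara. Its mean level stood above 33.6% of all tested genes at 3 days and above 58.7% at 7 days.

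Pparg encodes PPAR gamma (mm10 chromosome 6, 115360790 to 115490448 in the authors' table). It measured 4.11, 3.65 and 5.01 FPKM in the 3-day libraries and 11.8, 11.5 and 12.6 FPKM in the 7-day libraries. All 3 values at 7 days were more than double the highest at 3 days. The mean rose from 4.26 ± 0.694 to 11.99 ± 0.567 FPKM (SD, n = 3), a 2.81-fold increase. The log2(FPKM + 1) difference was 1.31 ± 0.14 (SE, limma adjusted p = 8.79e-04). Adding 1 makes this difference smaller than the log2 of that fold. Pparg was called under all 14 alternative settings, with log2 changes of 1.23 to 1.48. An annotated antisense gene, Gm44079, lies within this locus, and whether the authors counted by strand is not stated.

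Ppard encodes PPAR delta, the isotype found in most tissues (chromosome 17, 28232715 to 28301465). It measured 8.16, 7.496 and 8.40 FPKM at 3 days and 5.41, 5.55 and 5.37 FPKM at 7 days. The groups did not overlap, and the 7-day libraries lay close together. The mean fell from 8.02 ± 0.469 to 5.44 ± 0.0928 FPKM (log2 -0.48 ± 0.12, SE; limma adjusted p = 0.0175). This call had an adjusted p of 0.0506 to 0.0568 without 3-day replicate 3 or any 1 of the 7-day libraries, and of 0.0957 with quantile normalization. In the authors' deposited table its q-value was 0.158. Summed levels of neuron and astrocyte markers were also lower at 7 days, and they were highest in 3-day replicate 2. Ppard measured 7.496 FPKM in that library, beside 8.16 and 8.40 FPKM in the other 3-day libraries. The part of other cells in the change of Ppard was not tested.

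The balance of the PPAR isotypes within each library followed from these opposite changes. Pparg was 0.504, 0.487 and 0.597 of the Ppard level in the 3-day libraries and 2.19, 2.07 and 2.35 times that level in the 7-day libraries. Pparg was thus the lower of the pair in all 3 libraries at 3 days and the higher in all 3 at 7 days. As a share of their summed FPKM, it went from 33.5%, 32.7% and 37.4% to 68.6%, 67.5% and 70.1%. The difference in log2(FPKM + 1) ratio was 1.80 (two-sided exact permutation p = 0.1, the smallest that 3 against 3 libraries allow; adjusted p = 0.12 over 6 pairs). The other isotype gene, Ppara, was not analysed here.

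**Figure D2:**
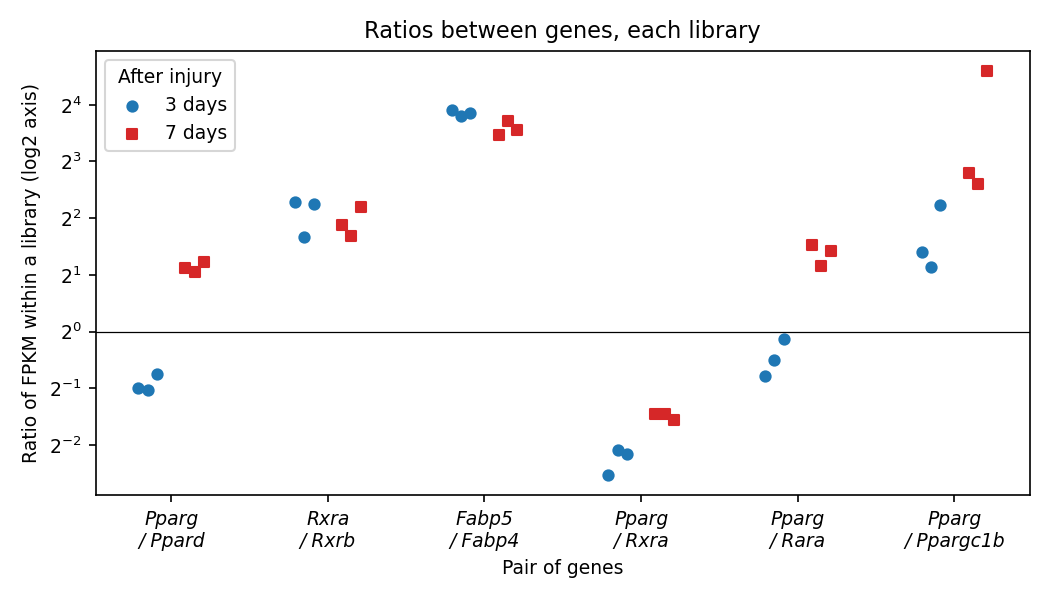
Ratio of FPKM between pairs of the genes within each library (log2 axis), blue circles at 3 days and red squares at 7 days, with a line at equal levels. Pparg over Ppard and Pparg over Rara cross the line between the times, while Rxra over Rxrb overlaps between them.

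Rxra encodes RXR alpha, the heterodimer partner of the PPARs (chromosome 2, 27677297 to 27763527). It measured 23.8, 15.4 and 22.5 FPKM at 3 days and 32.4, 31.5 and 37.1 FPKM at 7 days, with no overlap. The low 3-day value was that of replicate 2. The mean rose from 20.6 ± 4.49 to 33.7 ± 3.00 FPKM (log2 0.70 ± 0.17, SE; limma adjusted p = 0.0155), with an adjusted p of 0.0579 without 7-day replicate 3.

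Rxrb, the gene of RXR beta (chromosome 17, 34028178 to 34038399), measured 4.87, 4.82 and 4.72 FPKM at 3 days and 8.84, 9.74 and 8.12 FPKM at 7 days. The 3-day libraries lay very close together and far below the others. The mean rose 1.85-fold, from 4.80 ± 0.0746 to 8.90 ± 0.811 FPKM. The log2(FPKM + 1) difference was 0.77 ± 0.13 (SE, limma adjusted p = 0.00385), and Rxrb was called under all 14 alternatives. In the authors' deposited table the q-value was 0.180. The authors' locus also spans Slc39a7, a zinc transporter gene on the opposite strand, and overlaps Gm20427. Slc39a7 has no row of its own in the authors' listing. Reads from Slc39a7 or Gm20427 may thus not be told apart from Rxrb.

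The RXR genes kept their order. Rxra was 3.20 to 4.88 times Rxrb at 3 days and 3.24 to 4.57 times at 7 days, and the difference in log2 ratio was -0.06 (two-sided exact permutation p = 0.9, adjusted p = 0.9). Its sign changed when 3-day replicate 1, 3-day replicate 3 or 7-day replicate 2 was left out. Summed FPKM of the RXR genes was 28.6, 20.2 and 27.2 at 3 days and 41.2, 41.2 and 45.2 at 7 days. These sums and the ratios of Rxra to Rxrb carry the limit on Rxrb reads given above. Pparg stayed below Rxra throughout, at 0.173, 0.237 and 0.223 of its level at 3 days and 0.366, 0.365 and 0.340 at 7 days. That ratio did not overlap between the times (two-sided exact permutation p = 0.1, adjusted p = 0.12). The other family gene, Rxrg, was listed at 0 in 2 libraries at 3 days and in 2 at 7 days and was not called.

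**Figure D3:**
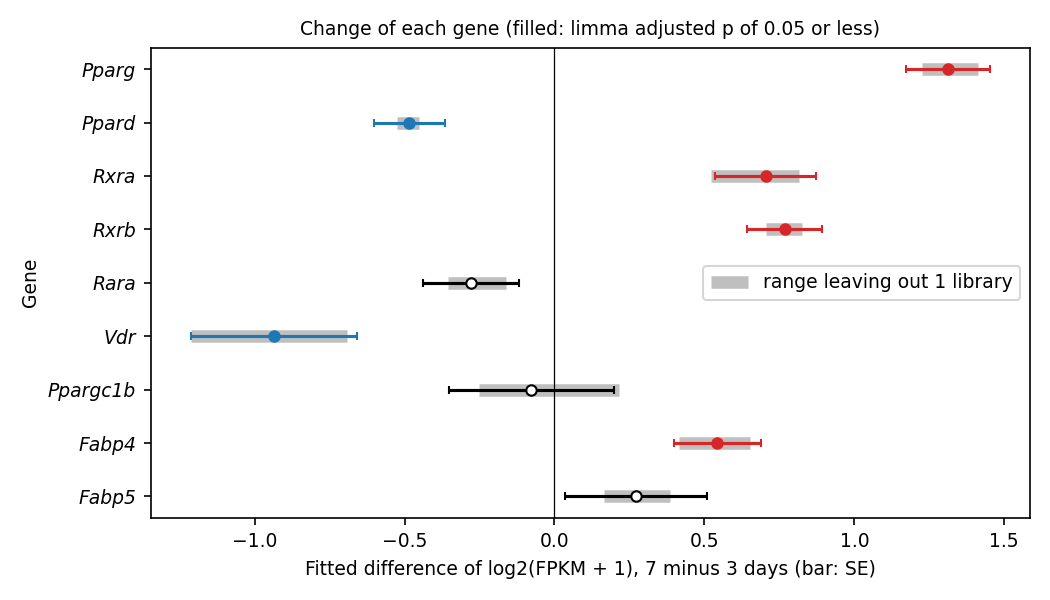
Fitted difference of log2(FPKM + 1), 7 minus 3 days, for each of the 9 genes, with its SE. Red points were called higher, blue points lower and open points not called, and grey bars give the range when 1 library was left out. The Pparg and Rxrb bars are short against their distance from 0, and that of Ppargc1b crosses it.

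Rara encodes retinoic acid receptor alpha (chromosome 11, 98937232 to 98974901). It measured 7.04, 5.15 and 5.47 FPKM at 3 days and 4.12, 5.15 and 4.69 FPKM at 7 days. The 3-day replicate 2 lay just below 7-day replicate 2, so the groups overlapped, and the highest value was in 3-day replicate 1. The difference was -0.28 ± 0.16 on the log2 scale (SE; limma adjusted p = 0.197) and kept its sign under all 14 alternatives without being called. Pparg was 0.584 to 0.916 of Rara at 3 days and 2.23 to 2.87 times Rara at 7 days (two-sided exact permutation p = 0.1, adjusted p = 0.12).

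Vdr encodes the vitamin D receptor (chromosome 15, 97859133 to 97885387). It measured 1.66, 2.55 and 0.727 FPKM at 3 days and 0.389, 0.171 and 0.435 FPKM at 7 days. All 7-day values lay below the 3-day values, which themselves differed severalfold, with the highest in replicate 2. The mean fell from 1.65 ± 0.913 to 0.332 ± 0.141 FPKM. The log2(FPKM + 1) difference was -0.94 ± 0.28 (SE; limma adjusted p = 0.0328), and it was -1.92 with a pseudocount of 0.1, because adding 1 shrinks the change of low genes. The call was lost without any single library except 3-day replicate 3 (adjusted p of 0.0646 to 0.106), after quantile normalization (0.251) and in the fit that blocks on replicate number (0.0533). The 3-day library with the highest Vdr level also held the highest neuron and astrocyte marker sums, and the part of other cells in the Vdr level was not tested. Without it the log2 difference was -0.69.

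Ppargc1b encodes PGC-1 beta, a coactivator that PPARs and the estrogen-related receptors use at genes of mitochondria and fatty acid oxidation. Its position on chromosome 18 is 61311480 to 61400340 in the unfiltered and 61299539 to 61304848 in the filtered table, with the same FPKM in both. It measured 1.56, 1.66 and 1.07 FPKM at 3 days and 1.71, 1.90 and 0.521 FPKM at 7 days. The lowest and the highest of the 6 values were both at 7 days, so the groups overlapped. The log2 difference was -0.08 ± 0.28 (SE; limma adjusted p = 0.834). Its sign changed when 7-day replicate 3 was left out (0.22), after quantile normalization (0.45) and after median centring (0.0063), so no direction is given. Pparg was 2.64, 2.197 and 4.70 times Ppargc1b at 3 days and 6.93, 6.04 and 24.2 times at 7 days, without overlap (two-sided exact permutation p = 0.1, adjusted p = 0.12). The ratio of 24.2 was in 7-day replicate 3, where Ppargc1b was lowest.

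Fabp5 encodes the epidermal-type fatty acid binding protein, also made by macrophages (chromosome 3, 10012545 to 10017269). It measured 2979.6, 3424 and 4035 FPKM at 3 days and 3810.3, 4315 and 4407 FPKM at 7 days. The 3-day replicate 3 lay above 7-day replicate 1, so the groups overlapped. Fabp5 ranked from 2 to 4 among all tested genes in every library. The mean was 3480 ± 529.99 FPKM at 3 days and 4177 ± 321 FPKM at 7 days, a log2 difference of 0.27 ± 0.24 (SE; limma adjusted p = 0.379). With quantile normalization the difference was -0.30 (adjusted p = 0.321), so its direction turned with the scaling. GENCODE M21 annotates a processed copy, Fabp5l2, and reads may be split with it, so the Fabp5 level is uncertain.

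Fabp4 encodes the adipocyte-type protein, known as a PPAR gamma target in fat cells and macrophages and also made by endothelial cells (chromosome 3, 10204038 to 10208625). It measured 199, 245 and 278 FPKM at 3 days and 345, 327 and 373 FPKM at 7 days, with no overlap. The mean rose from 240.5 ± 39.3 to 348 ± 22.9 FPKM, a 1.45-fold increase (log2 0.54 ± 0.14, SE; limma adjusted p = 0.0229). The call was lost without 3-day replicate 2 or any 1 of the 7-day libraries (adjusted p of 0.0520 to 0.0793) and with quantile normalization (0.0974). Of 8 endothelial markers tested, 6 were lower and 1 was higher at 7 days. Their summed level went from 43.5 to 70.7 FPKM at 3 days to 26.8 to 31.6 FPKM at 7 days. The part of endothelial cells in the Fabp4 level was not tested. The 7 adipocyte markers on the list were not analysed here.

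Fabp5 exceeded Fabp4 in all 6 libraries, by 14.95, 13.99 and 14.5 times at 3 days and 11.1, 13.2 and 11.8 times at 7 days. The ratio was lower at 7 days without overlap, by 0.27 on the log2 scale (two-sided exact permutation p = 0.1, adjusted p = 0.12). Fabp5 still made up 93.3% to 93.7% of their summed FPKM at 3 days and 91.7% to 93.0% at 7 days.

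Other carriers and activators of fatty acids were higher or not called. On that list of 11 tested genes 5 were higher and 0 lower, beside 18.8% and 20.3% of all tested genes, and the median log2 change was 0.45. Of those called higher, Cd36, Acsl1 and Slc27a1 are also counted on the PPAR target list below. Of the other FABP genes, Fabp3 of muscle type went from 30.8 ± 4.80 to 43.1 ± 11.6 FPKM and was not called. The authors' locus for Fabp3 ends at 130359965 on chromosome 4, past the GENCODE M21 end of the gene at 130315463. This value may thus hold reads from beyond Fabp3. Fabp7, the brain-type protein of glia, measured 21.4, 46.2 and 26.2 FPKM at 3 days and 18.5, 23.1 and 27.2 FPKM at 7 days and was not called either. Both were named after their values were seen. Scp2, a carrier of sterols and fatty acids, rose from 58.3 ± 3.07 to 118.7 ± 6.04 FPKM (log2 1.01 ± 0.09). The acyl-CoA synthetase gene Acsl5 rose from 48.1 ± 7.43 to 73.8 ± 3.00 FPKM. Its relative Acsl1 rose from 9.18 ± 1.07 to 14.8 ± 2.97 FPKM and lost its call in 4 of 6 fits that left out 1 library (adjusted p up to 0.0730).

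Genes known as PPAR targets in other tissues or cells were mostly higher. Of 30 tested 20 were higher and 5 lower, with a median log2 change of 0.63, beside 18.8% and 20.3% of all tested genes. Leaving out 1 library gave 15 to 17 higher and 4 to 7 lower. Several of these genes answer to other factors as well, and the earlier results of these data were known when the list was made. Lpl, a lipase that frees fatty acids from lipoproteins, measured 31.0, 25.6 and 33.4 FPKM at 3 days and 375, 305 and 410 FPKM at 7 days. The fatty acid receptor gene Cd36 measured 564, 570 and 652 FPKM at 3 days and 2032, 2167 and 2165 FPKM at 7 days. Their log2 changes were 3.55 ± 0.15 and 1.83 ± 0.15. The lipid droplet coat gene Plin2, the lipase inhibitor gene Angptl4 and the carnitine transferase gene Cpt1a were called too, with log2 changes of 0.83, 0.83 and 0.75. Members of the list that fell were led by Arg1, the arginase of alternative activation, which measured 481, 425 and 625 FPKM at 3 days and 63.7, 68.4 and 69.5 FPKM at 7 days (log2 -2.89 ± 0.15). Scd1, a fatty acid desaturase, fell from 15.3 ± 4.15 to 4.71 ± 0.395 FPKM. The other 3 that fell were Klf4, Tgm2 and Plin4. Pdk4, often used as a readout of PPAR delta, measured 2.61, 5.15 and 6.43 FPKM at 3 days and 3.07, 2.45 and 1.03 FPKM at 7 days and was not called (limma adjusted p = 0.0888).

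Among 15 other nuclear receptor genes 5 were higher and 3 lower, with a median log2 change of -0.28. Against the 18.8% higher and 20.3% lower among all tested genes, 3 of 15 lower is near the background. Nr1d2, the gene of the heme receptor REV-ERB beta, rose from 14.2 ± 1.08 to 26.7 ± 2.26 FPKM (log2 0.86 ± 0.11). Esrra, the gene of estrogen-related receptor alpha, a partner of PGC-1 coactivators, rose from 4.99 ± 0.501 to 9.57 ± 1.19 FPKM (log2 0.82 ± 0.14). Nr2c1, an orphan receptor gene, rose from 3.03 ± 1.85 to 6.21 ± 0.361 FPKM, but lost its call without any single library except 3-day replicate 2 (adjusted p up to 0.121). Thra, the thyroid hormone receptor alpha gene, fell from 11.3 ± 1.98 to 5.90 ± 0.961 FPKM. The other 2 that fell were the paralogs of Rara, named after their values were seen. Rarb fell from 2.06 ± 0.755 to 0.809 ± 0.294 FPKM, and Rarg from 2.76 ± 0.375 to 1.46 ± 0.338 FPKM. Counts were 3 higher without 3-day replicate 1, 3-day replicate 3 or any 7-day library, and 1 lower without 3-day replicate 3, 7-day replicate 1 or 7-day replicate 2 and with quantile normalization.

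Coactivator and corepressor genes were called higher in 4 of 14 and lower in 2, with a median log2 change of 0.11, where all tested genes had 18.8% higher and 20.3% lower. Ncoa4, a coactivator better known for delivering ferritin to lysosomes, measured 10.5, 11.3 and 11.5 FPKM at 3 days and 36.7, 37.9 and 35.9 FPKM at 7 days (log2 1.65 ± 0.09). Tbl1xr1, a subunit of the corepressor complexes, rose from 27.0 ± 6.37 to 50.9 ± 2.63 FPKM. Pprc1, the relative of the PGC-1 genes, fell from 10.7 ± 2.95 to 5.55 ± 0.482 FPKM, and Ncoa6, a coactivator of several receptors, from 34.1 ± 4.34 to 25.3 ± 2.37 FPKM. Both lost their calls in 4 or more of 6 fits that left out 1 library. With quantile normalization, or when any 7-day library was left out, 2 were higher. They were 0 lower without 3-day replicate 1, 3-day replicate 3 or 7-day replicate 2, 1 lower without 7-day replicate 1 or 7-day replicate 3, with median centring or with one prior variance, and 5 lower with suspect rows kept.

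On the list of PGC-1 partners and mitochondrial biogenesis 4 of 12 were higher and 0 lower, with a median log2 change of 0.25 (all tested genes: 18.8% higher, 20.3% lower). Besides Esrra these were Tfam, which packages mitochondrial DNA (18.1 ± 0.760 to 27.9 ± 6.06 FPKM), the methyltransferase gene Tfb2m (4.92 ± 0.647 to 7.43 ± 0.657 FPKM) and the DNA binding protein gene Ssbp1 (29.2 ± 6.16 to 43.4 ± 2.23 FPKM). Each of these 3 lost its call in 4 or more of 6 fits that left out 1 library. Only 1 was higher without 7-day replicate 1 or 7-day replicate 2, and 2 were higher without 3-day replicate 2, 3-day replicate 3 or 7-day replicate 3 and with quantile normalization.

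Of 18 genes of retinoid metabolism and response 6 fell and 2 rose, with a median log2 change of -0.69, compared with 20.3% lower and 18.8% higher over all tested genes. The retinoic acid carrier gene Crabp2 fell from 9.38 ± 5.27 to 2.73 ± 0.532 FPKM, the receptor kinase gene Ret from 2.72 ± 1.53 to 0.450 ± 0.104 FPKM and the retinal dehydrogenase gene Aldh1a1 from 28.1 ± 13.03 to 12.2 ± 2.31 FPKM. These 3 were highest in 3-day replicate 2, the library with the highest neuron and astrocyte marker sums. The part of other cells in these values was not tested. Rarb and Tgm2, each also on another list above, fell too. Calls were lost for Crabp2 without 7-day replicate 1 or 2, for Aldh1a1 without 7-day replicate 2 or 3, and for Ret with quantile normalization. Without 3-day replicate 2 the list still had 6 lower, without 3-day replicate 1 it had 9, and without 7-day replicate 2 it had 3. The authors' filtered table held only 6 of the 18 genes, of which 2 were lower and 3 higher. The 2 genes that rose were Dhrs3, a retinal reductase gene (76.7 ± 10.3 to 147 ± 5.69 FPKM), and Rdh11. Of the vitamin D list 4 genes could be tested, and 1 was called, near the 20.3% of all tested genes that were lower: Cd14, a lipopolysaccharide co-receptor gene, fell from 27.2 ± 3.37 to 14.5 ± 1.29 FPKM. On that list 2 were higher with quantile normalization and 1 with median centring or in the filtered table, and 2 were lower with the replicate number as a block.

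**Figure D4:**
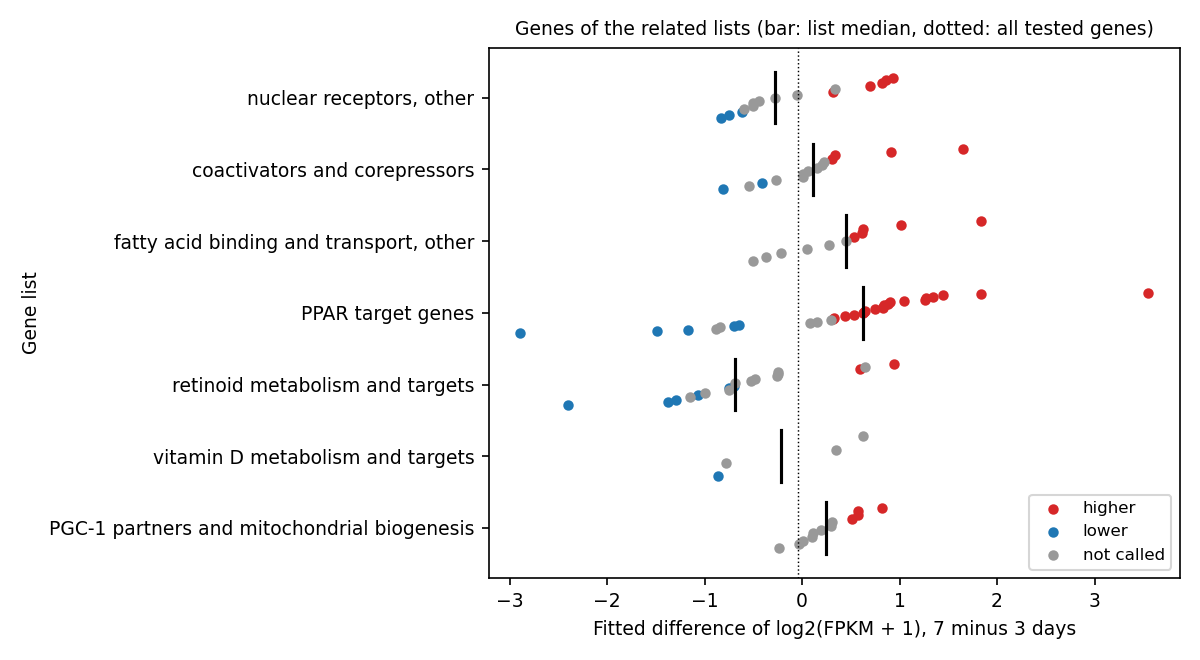
Fitted difference of log2(FPKM + 1), 7 minus 3 days, for each tested gene of the 7 related lists, red for genes called higher, blue for lower and grey for not called. Black bars are list medians and the dotted line is the median of all tested genes, -0.04. The PPAR target list has its median at 0.63 and the retinoid list at -0.69.

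Genes with the most similar profile were sought among 10289 tested genes at a mean of 1 FPKM or more. Likeness was the root mean square difference of log2(FPKM + 1) over the 6 libraries, each gene centred on its own mean. Nearest to Pparg were Rgs2, a regulator of G protein signalling (difference 0.0400; 22.9 ± 2.53 to 59.8 ± 3.78 FPKM), the ubiquitin ligase gene Rnf144b (0.0575; 6.36 ± 0.788 to 16.6 ± 0.256 FPKM) and Gas6, a ligand of receptors for apoptotic cells (0.0580; 69.2 ± 10.8 to 168 ± 3.34 FPKM). Nearest to Fabp4 were the mitochondrial channel gene Vdac2 (0.0400), Dnajc16 (0.0571) and Maea (0.0587). For Fabp5 they were the selectin ligand gene Selplg (0.0140), the actin regulator gene Coro1b (0.0381) and the sterol isomerase gene Ebp (0.0417), and none of these 3 was called.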

How the data were processed

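Ribosome-bound RNA was sequenced after ScriptSeq v2 library preparation, according to the extract protocol. The submitters' processing notes name Cuffdiff 2.2.1, Cufflinks 2.2, TopHat2 2.0.12 and the build mm10, without a role or order. The authors deposited an FPKM value per gene and library, mean FPKM per time, a log2 fold change, a p-value, a q-value and a test score (not used here). Scaling between libraries is not given in the sources used here.

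Of 13960 rows 918 were set aside: 45 with a status other than OK, 838 with library values over 1% off the authors' mean, 14 listed at 0 beside 100 FPKM or more, and 32 with repeated symbols. Some meet several criteria. The other 13042 were tested on log2(FPKM + 1) with limma 3.58.1 (R 4.3.3), mean-dependent prior variance, two-sided. The code was tested on simulated data. Ratios between members used two-sided exact permutation tests (scipy 1.17.1), adjusted over 6 pairs. Log2 changes of genes are differences of log2(FPKM + 1), unless another pseudocount is named or an alternative is described. Errors of log2 changes are SE, and those of FPKM are SD over 3 libraries.

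Named genes are the 9 members, up to 4 called genes with the largest changes per list (larger mean of 1 FPKM or more), the 3 nearest profiles of Pparg, Fabp4 and Fabp5 (leaving out predicted genes, pseudogenes and small RNAs), and Rpl22 and Lyz2; others are examples. The values of 1 gene under this rule are not reported here. Members and lists were chosen with earlier results of these data known. Coordinates are as the authors' table gives them; whether starts count from 0 or 1 is not stated. Promoters are from RefSeq, GRCm38.p6. Alternatives tried were pseudocount 0.1, a filter at 1 FPKM, quantile normalization, median centring, the replicate number as a block, one prior variance, leaving out each library, the filtered table and keeping suspect rows.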

Additional observations from a re-analysis of the deposited data

How the results depend on the processing

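Pparg and Rxrb kept their calls in every alternative run, and Rara, Fabp5 and Ppargc1b were called in none. With quantile normalization the log2 changes of Ppard (-0.35), Vdr (-0.40) and Fabp4 (0.31) lost their calls, Ppargc1b (0.45) and Fabp5 (-0.30) changed sign, and 0 members were called lower. Ppargc1b was at 0.0063 with median centring. Vdr fell below the filter at 1 FPKM, which left 1 member called lower. Over fits that left out 1 library, log2 changes ran from -0.53 to -0.45 for Ppard, from -1.21 to -0.69 for Vdr, from 0.41 to 0.65 for Fabp4, from 0.52 to 0.82 for Rxra and from -0.25 to 0.22 for Ppargc1b, which was at 0.22 without 7-day replicate 3. In these fits 2 to 4 members were called higher and 0 to 1 lower. The log2 ratio difference of Rxra over Rxrb ran from -0.25 to 0.04, and was 0.042 without 3-day replicate 1, 0.043 without 7-day replicate 2 and 0.021 without 3-day replicate 3. Over all genes these fits called 1572 to 2207 higher and 1697 to 2565 lower, fewest without 7-day replicate 2. The authors' filtered table gave 1433 lower, with 9585 genes tested. The Rpl22 log2 change was 0.027 with median centring and ran from -0.14 to 0.038 over fits that left out 1 library, above 0 without 3-day replicate 3 or 7-day replicate 1. With the replicate number as a block the members called lower went from 2 to 1, as Vdr (log2 -0.94, adjusted p = 0.0533) lost its call; over all genes 2450 were higher and 2425 lower. Deviations from the mean of their time correlated across genes at r = 0.1, 0.005 and 0.005 between same-numbered libraries. Between differently numbered libraries r was -0.052 to 0.043. With only 3 libraries per time these values cannot decide whether the numbers pair the libraries. Cause was not tested for any of these changes. Without counts, the precision of low genes such as Vdr and Ppargc1b is unknown.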
